A study of Mus musculus with 2 samples.

Results

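The nuclear genes of the mitochondrial respiratory chain were described in cells of 2 mouse acute promyelocytic leukaemias, APL#2 and APL#1, with 1 RNA sequencing library from each. Members were the rows of the gene table whose symbol starts with Nduf, Uqcr or Atp5, or with Cox and a digit from 4 to 8, together with Sdha, Sdhb, Sdhc, Sdhd, Cyc1 and Cycs. This gave 92 of 23235 genes, of which 42 carry complex I names, 4 belong to complex II, 9 to complex III, 19 carry complex IV names and 17 complex V names, and Cycs stands alone. Levels are in FPKM, fragments scaled to the length of the transcript and to the depth of the library. The 76 members with a mean of at least 1 FPKM over both libraries are called measured, as are 4100 genes of the whole table.

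An age of 10 weeks is labelled for both samples, and the leukaemia, a myeloid one driven by the PML-RAR fusion, came from C57BL/6-Ly5.2 mice. The labels give them both as mCG-PML-RAR transgenic and as PML-RAR KI (knock-in). The treatment label reads untreated, while the titles of both libraries carry the letters VEH. Leukaemic cells were passed into CD45.1+ recipients of strain C57BL/6-Ly5.1 that had not been irradiated, with 200000 cells injected in the case of APL#2 and 2000000 in that of APL#1, so that leukaemia and cell number differ together. The CD45.2+ cells were recovered from spleen on immunomagnetic columns. Each leukaemia comes from 1 mouse, and the series calls them clones whose leukaemia-initiating cells, the cells that can restart the disease, occur at unequal frequency. With 1 library each there is no replicate check and no test: every difference below is between these libraries, and RNA per cell cannot be told apart from the mix of cells in them.

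Oxidative phosphorylation is the use of electrons from food molecules to make ATP in the inner mitochondrial membrane. Complex I takes electrons from NADH and complex II from succinate, both pass them by ubiquinone to complex III, cytochrome c carries them to complex IV, and complex IV gives them to oxygen. Complexes I, III and IV pump protons as they do so, and complex V, the ATP synthase, lets protons flow back and makes ATP. Most subunits are encoded in the nucleus, and a small set of central membrane subunits is encoded in mitochondrial DNA. The mitochondrial DNA transcripts looked up here, such as mt-Nd1 and mt-Co1, were not found in the gene table under those names, so they were not analysed.

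Promoters of nuclear respiratory genes are textbook targets of the transcription factors NRF1, GABPA (an ETS factor) and YY1. The promoters below belong to the 4 members with the largest differences between the libraries and to Atp5k, a further member over 1.5-fold lower in APL#2 whose window holds both an NRF1 and an ETS motif. Each runs from 250 bases before to 50 bases after the RefSeq start in GRCm38.p6, with motif letters in capitals.
Atp5g3 promoter, chr2:73911277-73911576, minus strand: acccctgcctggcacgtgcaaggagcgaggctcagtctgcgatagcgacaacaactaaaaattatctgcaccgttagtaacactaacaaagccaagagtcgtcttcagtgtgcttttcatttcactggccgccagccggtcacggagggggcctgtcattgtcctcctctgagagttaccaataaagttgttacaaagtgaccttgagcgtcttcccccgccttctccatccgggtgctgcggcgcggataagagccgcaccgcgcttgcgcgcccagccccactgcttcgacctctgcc
Cox8a promoter, chr19:7217567-7217866, minus strand: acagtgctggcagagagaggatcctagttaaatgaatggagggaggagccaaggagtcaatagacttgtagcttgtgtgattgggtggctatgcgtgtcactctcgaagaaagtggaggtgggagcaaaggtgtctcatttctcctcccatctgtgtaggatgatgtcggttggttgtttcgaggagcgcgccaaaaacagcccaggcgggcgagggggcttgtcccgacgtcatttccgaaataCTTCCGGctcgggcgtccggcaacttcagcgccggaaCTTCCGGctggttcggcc
Ndufa1 promoter, chrX:37191189-37191488, minus strand: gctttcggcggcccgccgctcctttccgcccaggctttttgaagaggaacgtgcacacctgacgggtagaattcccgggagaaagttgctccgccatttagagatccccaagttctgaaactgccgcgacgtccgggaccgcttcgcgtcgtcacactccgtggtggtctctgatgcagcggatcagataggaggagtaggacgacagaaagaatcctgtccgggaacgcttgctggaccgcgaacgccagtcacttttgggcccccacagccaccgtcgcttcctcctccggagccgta
Uqcr11 promoter, chr10:80406772-80407071, minus strand: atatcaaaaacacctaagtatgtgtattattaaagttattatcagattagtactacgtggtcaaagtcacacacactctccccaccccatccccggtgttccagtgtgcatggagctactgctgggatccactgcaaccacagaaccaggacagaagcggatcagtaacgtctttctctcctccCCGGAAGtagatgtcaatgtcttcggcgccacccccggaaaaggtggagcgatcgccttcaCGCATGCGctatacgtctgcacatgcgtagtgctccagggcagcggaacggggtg
Atp5k promoter, chr5:108434350-108434649, minus strand: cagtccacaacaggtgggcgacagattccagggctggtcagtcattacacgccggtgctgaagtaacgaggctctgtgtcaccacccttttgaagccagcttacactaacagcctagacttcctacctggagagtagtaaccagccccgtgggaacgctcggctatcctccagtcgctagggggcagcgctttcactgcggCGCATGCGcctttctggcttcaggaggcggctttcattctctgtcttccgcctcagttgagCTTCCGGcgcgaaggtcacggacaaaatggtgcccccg
The motifs searched, on both strands, were GCATGCG for NRF1 (the core of its near-palindromic site, so matches on the 2 strands can overlap), CCGGAAG for ETS factors and GATGGCG for YY1. Cox8a had 2 ETS matches, Uqcr11 and Atp5k each had an ETS match and an NRF1 site read on both strands, and the windows of Ndufa1 and Atp5g3 held none of these letters. Promoter sequence was found for 75 members. Among them, the NRF1 letters occurred in 13 (17.3%, against 4.01% of 27025 genes), the ETS letters in 17 (22.7%, against 9.93%) and the YY1 letters in 12 (16.0%, against 4.04%). In all, 33 of the 75 (44.0%) held at least 1 of the 3 motifs, against 16.2% of all genes, and so did 5 of the 10 members at least 1.5-fold lower in APL#2. These matches describe the sequence and say nothing of binding in these cells.

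Grouped by gene name, the genes of complexes I, II, III and V were mostly lower in APL#2, whereas those of complex IV went both ways. In FPKM as deposited, 66 of the 76 measured members were lower in APL#2 and 10 were higher. Because the median of all measured genes was also lower in APL#2, by a log2 ratio of -0.17, each FPKM was raised by 1, the log2 ratio of APL#2 over APL#1 was taken, and that median was subtracted, which gives the relative difference. On this scale, 62 of 76 members (81.6%) lay below the all-gene median, where 50% of all genes lie by definition, and the median member stood at -0.24 (interquartile range -0.43 to -0.03, against -0.19 to 0.22 for all measured genes). The pseudocount of 1 understates the differences of low genes.

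Few single members were far from the rest. Of the 76, 10 were at least 1.5-fold lower in APL#2 (13.2%, against 5.34% of all measured genes) and 4 were at least 1.5-fold higher (5.26%, against 8.78%). At 2-fold the counts were 1 lower, Atp5g3 (1.32%, against 1.76%), and 1 higher, Cox8a (1.32%, against 2.93%), shares near or under the background. On this scale large differences were commoner among well-expressed genes: of the 36 members with a mean of at least 5 FPKM, 5 (13.9%, against 13.1% of all genes at that level) were at least 1.5-fold lower and 3 (8.33%, against 20.7%) higher. Among well-expressed genes the share of members at least 1.5-fold lower was thus near the background. Most members thus lay a little below the all-gene median, and few lay far from it.

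Together the 92 members took up 1.29% of all FPKM in APL#2 and 1.77% in APL#1. Summed FPKM was 162 in APL#2 and 238 in APL#1 for complex I, a ratio of 0.679. The ratio was 0.632 for complex II (7.18 FPKM in APL#2 and 11.4 in APL#1), 0.607 for complex III (36.4 and 59.9) and 0.633 for complex V (94.9 and 150). For complex IV it was 0.977, with 154 FPKM in APL#2 and 158 in APL#1, and without Cox8a 0.789. The order of the members by level was much alike in both libraries, with a Spearman's rho of 0.92 across the 76 measured genes, which share libraries and are not replicates.

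**Figure D1:**
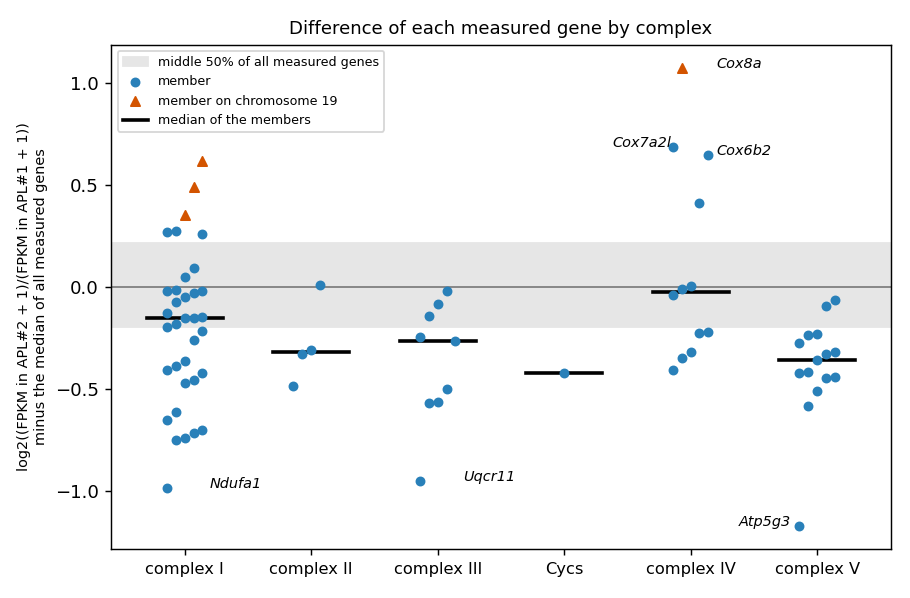
Relative difference (log2 scale, vertical axis) of each measured member, by complex. Each point is 1 gene, bars are medians, and the grey band is the middle 50% of all measured genes; all 15 points of complex V and all 9 of complex III lie below 0, and the 3 highest points of complex I are genes of chromosome 19.

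Complex I, the NADH dehydrogenase, had 35 measured genes with a median relative difference of -0.15, and 27 of them lay below the all-gene median. Ndufa1, a membrane subunit that was the highest of the complex I genes in both libraries, had 21.1 FPKM in APL#2 and 48.3 in APL#1. Its relative difference was -0.98, the lowest in complex I. The 6 other complex I genes at least 1.5-fold lower were Ndufc1 (1.15 FPKM in APL#2 and 3.08 in APL#1), Ndufb5 (0.956 and 2.68), Ndufb4 (1.87 and 4.26), Ndufa4 (13.3 and 25.5), Ndufs3 (0.505 and 1.66) and Ndufs6 (2.03 and 4.22). Ndufb4, Ndufb5 and Ndufc1 encode accessory subunits of the membrane arm and Ndufs6 one of the arm that reaches into the matrix. Ndufa4 carries a complex I name but its protein was later assigned to complex IV.

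Within complex I the membrane arm and the matrix arm differed in their medians. The 17 measured accessory genes of the membrane arm had a median of -0.39, with 13 below the all-gene median. The 9 measured accessory genes of the matrix arm had a median of -0.05, and 8 of them lay below the all-gene median, with values from -0.61 for Ndufs6 to 0.09 for Ndufa9. Ndufa3, the third highest of the complex I genes, is a membrane arm gene with 12.5 FPKM in APL#2 and 16.4 in APL#1, a relative difference of -0.19. No test of the difference between the arms was possible.

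The core subunits that carry electrons from NADH to ubiquinone went both ways. Ndufv1, which binds NADH and the flavin, was the 1 complex I gene at least 1.5-fold higher in APL#2, with 2.59 FPKM in APL#2 and 1.64 in APL#1. Ndufs8, an iron-sulphur subunit, was also higher, at 1.60 FPKM in APL#2 and 1.29 in APL#1. Ndufs3, a subunit of the ubiquinone-reducing module, went the other way as given above. Ndufv2 (0.893 FPKM in APL#2 and 1.74 in APL#1) and Ndufs7 (3.59 and 4.73), which are further subunits of the same electron path, were lower in APL#2. Ndufs1, which holds several iron-sulphur clusters, lay under the floor with 0.771 FPKM in APL#2 and 1.05 in APL#1. Of the assembly factors, which help to build the complex and are not part of it, Ndufaf2 was measured, at 6.52 FPKM in APL#2 and 6.02 in APL#1, and Ndufaf1, Ndufaf3 and Ndufaf4 were under the floor.

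**Figure D2:**
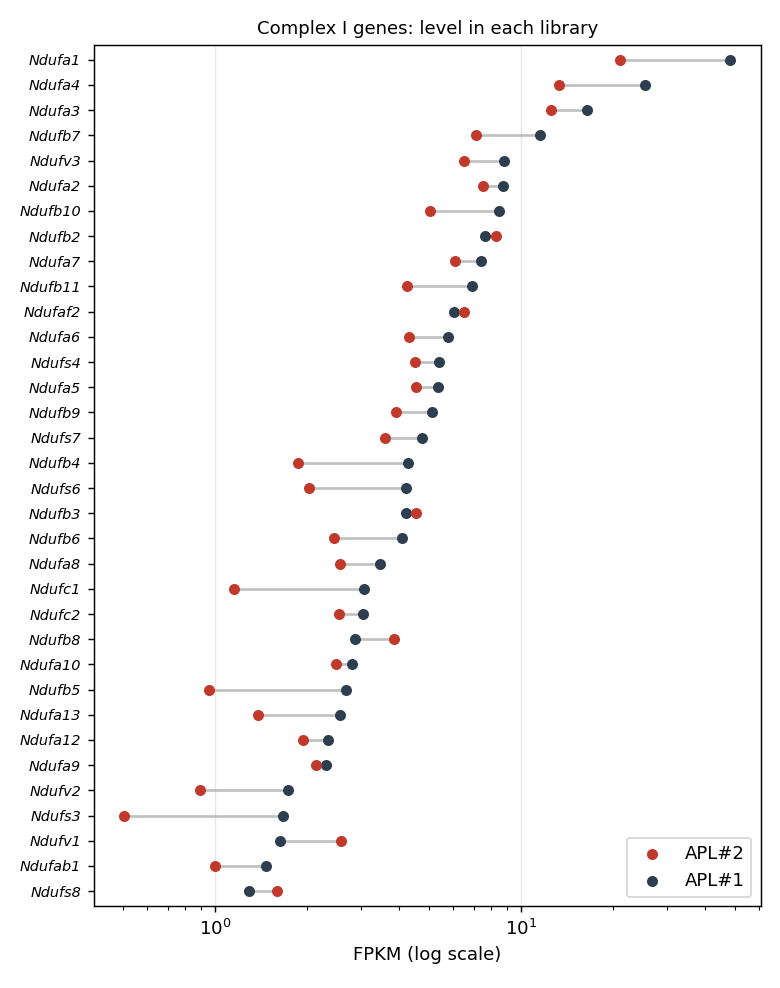
Level of the measured complex I genes reported here in APL#2 (red) and APL#1 (dark blue), in FPKM on a log axis, ordered by the level in APL#1. Lines join the 2 values of a gene; Ndufa1 is the highest gene in both, and Ndufv1, Ndufs8 and Ndufb8 are among the few with the red point on the right.

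Complex II, succinate dehydrogenase, is also an enzyme of the citric acid cycle and has no subunit from mitochondrial DNA. All of its 4 genes were measured at low levels. Sdha, the flavoprotein that oxidises succinate, had 1.38 FPKM in APL#2 and 2.36 in APL#1, and Sdhb, the iron-sulphur subunit, 1.19 in APL#2 and 2.05 in APL#1. Of the membrane anchors, Sdhd had 2.39 FPKM in APL#2 and 4.35 in APL#1, while Sdhc, at 2.22 in APL#2 and 2.60 in APL#1, stood at the all-gene median (0.01). So 3 of 4 were lower than the all-gene median, with a median of -0.32, and none passed 1.5-fold on this scale. The pseudocount shrinks ratios at such levels, and without it the median was -0.52.

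Complex III, the cytochrome bc1 complex, had all 9 of its genes measured and all 9 below the all-gene median, with a median relative difference of -0.26. Uqcr11, a small accessory subunit and the highest complex III gene in APL#1, had 6.26 FPKM in APL#2 and 14.8 in APL#1, a relative difference of -0.95 and the 1 gene of the complex past 1.5-fold. The small subunits Uqcrq (5.47 FPKM in APL#2 and 9.83 in APL#1) and Uqcr10 (4.02 and 7.37) followed at -0.57 each. Cyc1, cytochrome c1, had 2.12 FPKM in APL#2 and 3.97 in APL#1. The Rieske iron-sulphur protein gene Uqcrfs1 (2.06 FPKM in APL#2 and 2.65 in APL#1) and the hinge protein gene Uqcrh (7.94 and 9.20) lay close to the all-gene median. The spread among the subunits, from -0.95 to -0.02, was thus wider than the median shift of the complex.

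Cytochrome c, encoded by Cycs, carries electrons from complex III to complex IV and also triggers apoptosis when released from mitochondria. It had 0.963 FPKM in APL#2 and 1.96 in APL#1, with a relative difference of -0.42.

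Complex IV, cytochrome c oxidase, had 12 measured genes, with a median of -0.03, and 7 of them lay below the all-gene median and 5 above it. With subunits only and Ndufa4 counted in complex IV, its median was -0.13, close to the -0.15 of complex I. Cox8a, the widely expressed form of its smallest subunit, had 50.5 FPKM in APL#2 and 26.5 in APL#1, a relative difference of 1.08. In APL#2 it was the highest of all respiratory chain genes, whereas in APL#1 Cox6b1 and Ndufa1 were above it. Cox6b1, which lies on the outer side of the complex, went the other way, with 34.9 FPKM in APL#2 and 52.6 in APL#1 (-0.41). Cox6a1 (15.1 FPKM in APL#2 and 21.7 in APL#1) and Cox5b (6.37 and 9.57) were lower too, and the regulatory subunit gene Cox4i1 stood at the median, with 13.8 in APL#2 and 15.6 in APL#1 (0.01). Cox5a was higher at 3.77 FPKM in APL#2, against 3.04 in APL#1.

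The other complex IV genes at least 1.5-fold higher in APL#2 were Cox7a2l and Cox6b2. Cox7a2l encodes a protein linked to the joining of complexes III and IV into supercomplexes, which was not measured here. It had 7.42 FPKM in APL#2 and 4.89 in APL#1 (0.69). Its paralogue Cox7a2, the subunit of complex IV itself, had 3.38 FPKM in APL#2 and 4.07 in APL#1 (-0.04). Cox6b2, known as a testis form of the subunit encoded by Cox6b1, had 7.17 FPKM in APL#2 and 4.87 in APL#1 (0.65), the only measured member of the tissue-restricted forms. Its implied standard error in the authors' deposited table, 1.44 on the log2 scale, was the largest among the measured members. The remaining tissue-restricted forms were off or nearly off: Cox4i2, Cox6a2, Cox7b2 and Cox8c were listed at 0 in both libraries, as was Ndufa4l2, Cox8b was listed at 0 in APL#2 and had 0.109 FPKM in APL#1, and Cox7a1 had 0.497 in APL#2 and 0.322 in APL#1.

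Complex V, the ATP synthase, had a median of -0.36, and all of its 15 measured genes with an Atp5 name lay below the all-gene median. Usmg5, whose small protein sits with the ATP synthase but whose symbol falls outside the rule, stood at 0.92. The order of the complexes by their medians was not stable: complex V was lowest here, but complex II was lower than complex V with a pseudocount of 0.1 (-0.49 against -0.35) and complex III was lower at a floor of 5 FPKM (-0.58 against -0.41). The 3 genes of the catalytic head that carry out and drive ATP synthesis were close together: Atp5a1 (alpha) had 5.82 FPKM in APL#2 and 9.41 in APL#1, Atp5b (beta) 10.5 and 17.5, and Atp5c1 (gamma, the rotating stalk) 2.88 and 4.83, with relative differences of -0.44, -0.51 and -0.42. Atp5e (epsilon), the highest complex V gene, had 15.7 FPKM in APL#2 and 23.1 in APL#1, and Atp5d (delta) was the head gene nearest to the all-gene median, at -0.10. The 4 peripheral stalk genes Atp5f1, Atp5h, Atp5j and Atp5o, whose products hold the head still, lay between -0.42 and -0.23. Apart from Atp5g3, the measured members of the complex ran from -0.59 for Atp5k to -0.06 for Atp5l.

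Atp5g1, Atp5g2 and Atp5g3 encode the same mature c subunit, which forms the rotating ring in the membrane, with different import signals. Atp5g3 had 5.82 FPKM in APL#2 and 16.3 in APL#1, a relative difference of -1.17, the lowest of all 76 measured members. Atp5g1 had 5.01 FPKM in APL#2 and 8.23 in APL#1 (-0.45), and Atp5g2 had 8.54 in APL#2 and 11.99 in APL#1 (-0.28). The order of the 3 genes therefore differed: Atp5g3 was the highest in APL#1, and Atp5g2 was the highest in APL#2. Of the other membrane subunits, Atp5k had 5.04 FPKM in APL#2 and 9.20 in APL#1 (-0.59) and was the second complex V gene past 1.5-fold, while Atp5l had 5.28 in APL#2 and 6.39 in APL#1 (-0.06).

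**Figure D3:**
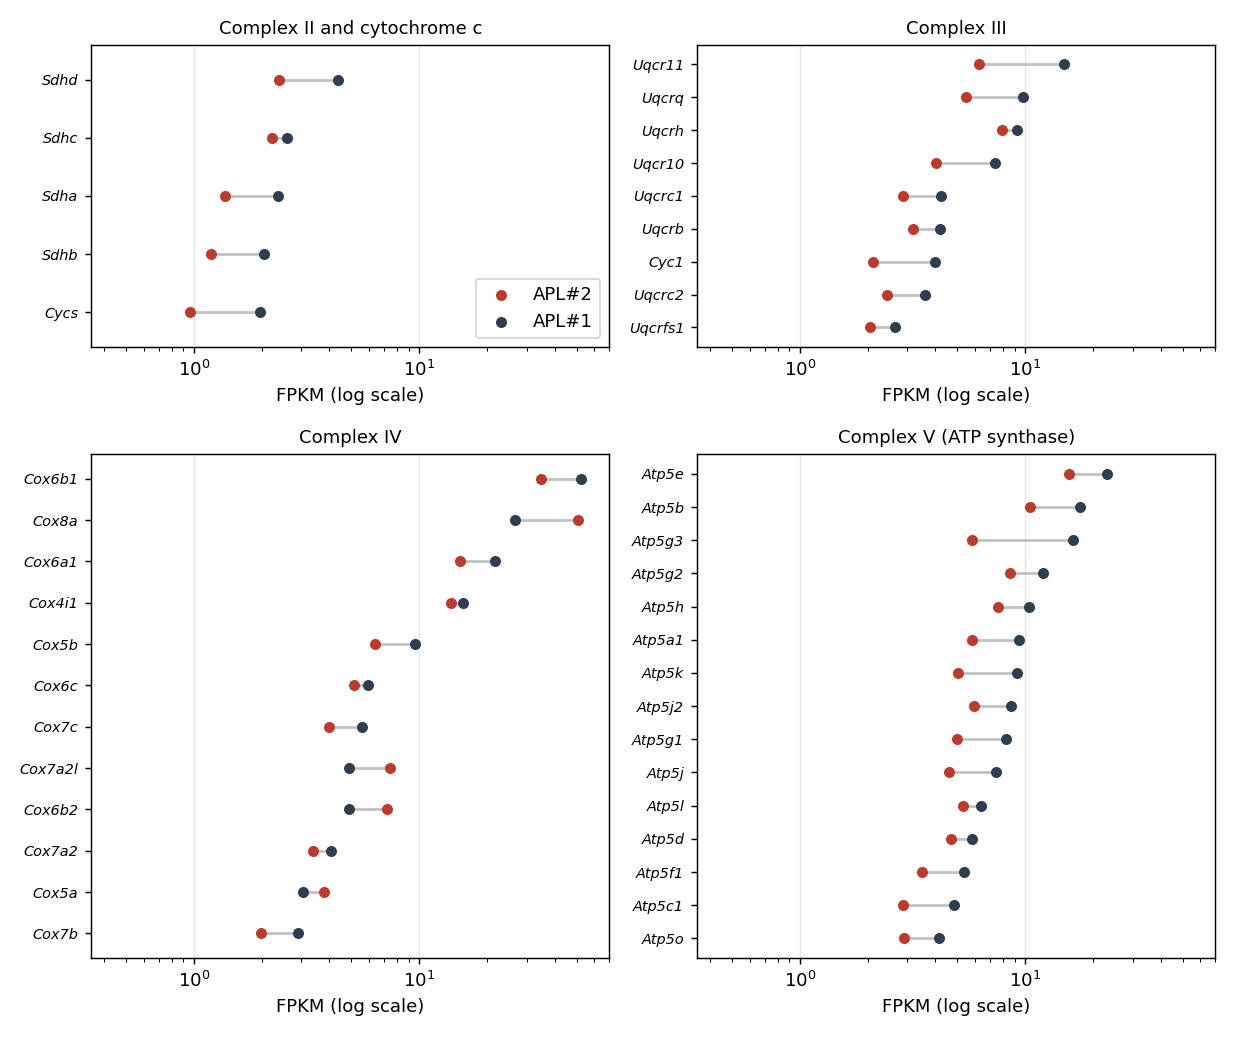
Level of each measured member of complexes II to V and of Cycs in APL#2 (red) and APL#1 (dark blue), in FPKM on a log axis, ordered by the level in APL#1. The red point lies to the left for every member of complexes II, III and V, and to the right for Cox8a, Cox7a2l, Cox6b2 and Cox5a in complex IV.

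Position on the chromosome moved with several of these values. All 4 members on chromosome 19 were above the all-gene median: Cox8a, Ndufv1, Ndufb8 (3.85 FPKM in APL#2 and 2.88 in APL#1) and Ndufs8. Their median was 0.55. The 130 other measured genes of chromosome 19 had a median of 0.60, and 129 of them lay above that line, the median of all genes. Each was set against its 20 nearest measured neighbours outside the members (10 on each side, fewer near a chromosome end). That left 12 neighbours for Ndufs8 and 13 for Ndufv1. Ndufv1 differed from its neighbours by 0.03, Ndufb8 by -0.07 and Ndufs8 by -0.18, while Cox8a stood 0.45 above its own. In mm9, the build named in the submitters' processing notes, the table lists Cox8a at chr19:7289647-7292106.

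On chromosome 2, all 5 measured members were below the all-gene median, and so were 168 of the 270 other measured genes. The neighbours of Atp5g3 (mm9 chr2:73746506-73749351) had a median of -0.57 and those of Ndufs3 (mm9 chr2:90734792-90744878) one of -0.56. Ndufs3 stood close to its neighbours, with a difference of -0.09, and Atp5g3 below them, with one of -0.60. Atp5c1, Atp5e and Ndufa8, elsewhere on chromosome 2, had neighbours between -0.14 and 0.06. The 5 members on chromosome 6 ran from -0.72 for Ndufa4 to 0.28 for Ndufb2 and had a median of -0.03, where the 229 other measured genes had one of 0.23; Cycs, Ndufa5 and Ndufa9 are the other members there. The shifts of these chromosomes were known from earlier results of the same libraries and are no separate support.

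The 62 measured members on the remaining chromosomes had a median relative difference of -0.25, with 54 below the all-gene median. Set against its own neighbours, the median member of all 76 stood at -0.24, and 65 of the 76 lay below them. Ndufa1 on chromosome X and Uqcr11 on chromosome 10 stood far below their neighbours (differences of -1.04 and -0.88). Without chromosomes 2, 6 and 19 the median relative difference was thus similar to that of all 76 members (-0.25 against -0.24). Ndufv1 and Ndufb8 stood close to the median of their neighbours, and Ndufs8 below it, with a difference of -0.18. The part of chromosomal position in any of these differences was not tested.

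**Figure D4:**
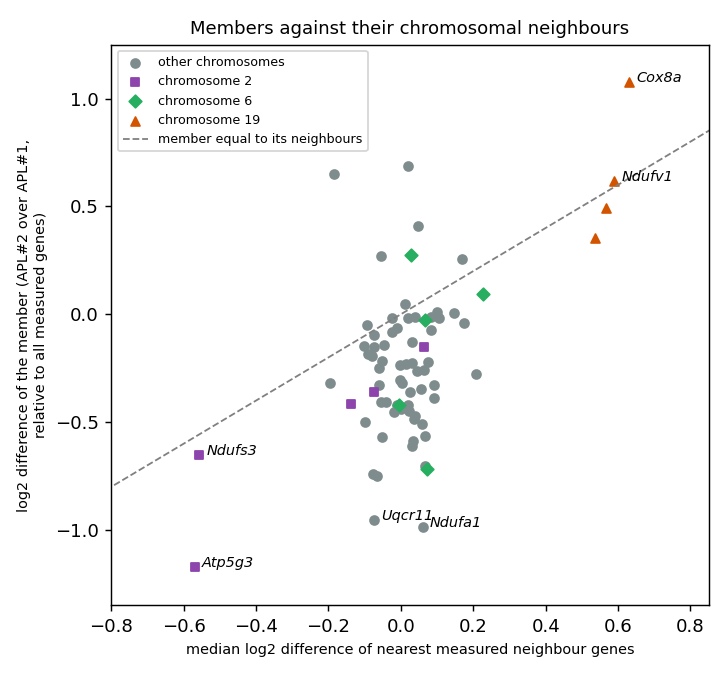
Relative difference of each measured member (vertical axis, log2) against the median relative difference of its nearest measured neighbour genes (horizontal axis, log2). Most points lie below the dashed line of equality, the 4 genes of chromosome 19 lie at the right with neighbours above 0.5, and Atp5g3 and Ndufs3 lie at the left.

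Genes that act with the respiratory chain, from lists kept apart from the members, did not share one direction. Of 45 symbols of assembly, inhibitor and related genes looked up, 33 were in the table. Some symbols are an older and a newer name of the same gene. The 11 measured genes had a median of 0.22, and 8 of them lay above the all-gene median. Of the 11, 1 was at least 1.5-fold lower (against 5.34% of all measured genes) and 2 were at least 1.5-fold higher (against 8.78%). So few genes cannot be set apart from those shares. Atpif1, the inhibitor of the ATP synthase, was the lower one, with 6.08 FPKM in APL#2 and 11.5 in APL#1. The higher ones were Usmg5, a small protein that sits with the ATP synthase (6.42 FPKM in APL#2 and 3.41 in APL#1, on chromosome 19), and Cmc1 (4.90 and 3.43). The copper carrier gene Cox17, which supplies complex IV, had similar levels, 7.52 FPKM in APL#2 and 7.08 in APL#1. The 9 carriers and porins of the mitochondrial membranes had a median of -0.09, with 5 below the all-gene median and 4 above it. The ATP/ADP exchanger gene Slc25a5 was the lowest of them, at 7.32 FPKM in APL#2 and 11.2 in APL#1 (-0.38). Slc25a4 stood at 0.03 and Slc25a3 at 0.21.

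Regulators of mitochondrial genes were low in both libraries. Of 16 listed, 3 were measured and none was past 1.5-fold: Yy1 had 2.36 FPKM in APL#2 and 3.44 in APL#1, Tfb2m 1.33 and 1.18, and Polg 1.21 and 1.35. Nrf1 had 0.718 FPKM in APL#2 and 0.940 in APL#1, Gabpa 0.449 and 0.557, Tfam 0.253 and 0.334, and Ppargc1a was listed at 0 in both. RNA levels do not measure the activity of these factors. The mitochondrial ribosomal protein genes, the other large group of nuclear genes for mitochondria, had a median of -0.06 over 54 measured of 76. Of the 54, 30 lay below the all-gene median, 5 were at least 1.5-fold lower (against 5.34% of all measured genes) and none higher (against 8.78%). Whether the 2 groups differ could not be tested with 1 library of each leukaemia.

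In the authors' deposited table none of the 76 measured members had a q-value of at most 0.05, against 0.22% of all measured genes. The lowest unadjusted p-value there was 0.0977, for Atp5g3. The standard error implied by the authors' deposited table (the log2 ratio over its test statistic) had a median of 1.05 over the members, from 0.591 for Atp5b to 1.44 for Cox6b2. It was 0.898 for Atp5g3, 0.6999 for Cox8a, 0.760 for Ndufa1 and 1.03 for Uqcr11. That error is wide beside most of the differences given here; it rests on the authors' model and not on replicates.

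The number of fragments behind each value was estimated from the low end of the table. Counting error was smaller than the authors' error: by estimate the median member had 174 fragments in APL#2 and 216 in APL#1, and the median counting errors were 7.59% in APL#2 and 6.81% in APL#1. At the extremes, Ndufc1 had about 10.5 fragments in APL#2 (counting error 30.9%) and Atp5b about 1708 in APL#1. By transcript length, the 220 other measured genes of at most 807 bases had a median of -0.01. The members up to that length had one of -0.19, against -0.29 for longer members. The part of transcript length in these differences was not tested.

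Of the 92 members, 16 were under the floor, all of which have been named except Cox4nb, Atp5s, Atp5sl, Ndufa11 and Ndufs5. Cox4nb is the neighbour of Cox4i1 and no subunit of the complex (0.253 FPKM in APL#2 and 0.329 in APL#1). Atp5s and Atp5sl carry the name of the ATP synthase without being its core subunits, at 0.429 and 0.740 FPKM in APL#2 and 0.287 and 0.848 in APL#1. Ndufa11, a membrane arm subunit, had 0.303 FPKM in APL#2 and 0.384 in APL#1. Ndufs5 was just outside the floor, with 1.97 FPKM in APL#2 and 5.86e-05 in APL#1, and Ndufs3 just inside it, with 0.505 and 1.66.

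The value of Ndufs5 is uncertain. The table lists it at an interval that overlaps BC002163, which had 1.73 FPKM in APL#2 and 3.10 in APL#1. The 2 rows together came to 3.71 FPKM in APL#2 and 3.10 in APL#1, so the sums were much closer than the values of Ndufs5. Another gene's interval also overlapped 7 measured members, Atp5b, Atp5f1, Atp5j, Ndufa2, Ndufa13, Ndufb11 and Uqcrc2, and the sources used here do not say how reads were shared there. The rows that overlap measured members held at most 1.03 FPKM, for Rbm10 in APL#1 beside Ndufb11.

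The libraries looked like myeloid cells with little sign of other spleen cells. All 6 granulocyte precursor markers were at least 1 FPKM in both, with a summed level of 227 FPKM in APL#2 and 765 in APL#1, most of it Mpo (157 and 662). The 6 markers did not share one direction: Elane (5.01 FPKM in APL#2 and 32.4 in APL#1), Cd63 (37.2 and 51.8) and Prtn3 (2.45 and 3.45) were lower in APL#2 like Mpo, while Ms4a3 (15.9 and 7.85) and Ctsg (8.99 and 7.89) were higher. The leucocyte gene Ptprc had 4.10 FPKM in APL#2 and 4.66 in APL#1. Of 17 markers of B cells, T cells, erythroid cells, macrophages, megakaryocytes and NK cells, 1 reached 1 FPKM, Itga2b (3.95 in APL#2 and 2.34 in APL#1), and Pf4, Epor, Slc4a1 and Ncr1 were at 0 in both. The part of cell state in the differences of the respiratory genes was not tested.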

How the data were processed

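The authors deposited 1 gene table, whose 2 value columns were read as FPKM from their Cuffdiff-like layout, because no unit stands in the header. Per the submitters' processing notes, mm9, Cufflinks, Cuffdiff and TopHat2 (2.0.10) were used, in no stated role. The sources used here state no annotation, filter, strand, read layout or library normalization. Further deposited columns, per the file headers, are a test statistic (a score), a p-value and a q-value from the authors' test of the libraries against each other. The FPKM columns summed to 35239.9 in APL#2 and 34893.9 in APL#1.

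Relative differences used a pseudocount of 1 and the median of the 4100 genes with a mean of at least 1 FPKM; a fold threshold of 1.5 or 2 refers to this scale. No rows were dropped for -ps symbols or several symbols (0 and 0). With 1 library each no test was run. Medians were checked on simulated data with a known shift. Members, lists and subunit roles were chosen with earlier results of these data known. The genes named were, in each complex, the 3 with the highest mean and the 2 at either end of the difference, every member past 1.5-fold, the redox or catalytic core, tissue isoforms, members on chromosomes 2, 6 and 19 and those under the floor; others were named after their values were seen, to fill out a group. The counts and medians include 1 member that is not reported here singly.

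For depth, 305 of 3168 genes under 0.2 FPKM shared an APL#1 to APL#2 ratio of 1.08 (within 0.1%), as for equal fragment numbers. From 23 genes at the lowest step, 1 fragment on 1 effective kilobase was worth 0.0165 FPKM in APL#2 and 0.0179 in APL#1, with effective length about 165 bases under the GENCODE M21 transcript length. The build differs from mm9, so fragment numbers are approximate, and errors from them cover counting only. Promoters came from RefSeq on GRCm38.p6. Analyses used Python 3.11.15, pandas 2.3.3, numpy 2.4.6 and scipy 1.17.1. Alternatives covered the pseudocount, the floor, centring, scaling, chromosomes, the mean, the subunits counted, neighbours and overlaps.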

Additional observations from a re-analysis of the deposited data

How the results depend on the processing

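The lower level of the members in APL#2 kept its direction in all 11 alternatives tried for the median member (values from -0.41 to -0.22), and the medians of complexes I, II, III and V stayed below 0 in every alternative run for them. Complex IV had no firm direction: its median was 0.011 with a pseudocount of 0.1 and 0.019 with none, and its mean was 0.10, so it reversed in these 3. With subunits only and Ndufa4 counted in complex IV, its median was -0.13, against -0.15 for complex I. With a pseudocount of 0.1 the complex II median was -0.49 and 17 of 76 members were at least 1.5-fold lower, where 9.05% of all genes were, and with none these were -0.52, 16 and 9.33%. Complex II was then lower than complex V, as it was with upper quartile scaling (-0.36 against -0.33). With no filter on low values the median member stood at -0.36 and complex V at -0.47, with 18 of 87 members at least 1.5-fold lower (3.11% of all genes) and 2 higher (2.06%). At a floor of 5 FPKM complex III stood at -0.58 over 4 genes, and 31 of 36 members lay below the median, with 6 at least 1.5-fold lower (13.5% of all genes at that level) relative to the median of those genes. With no centring the median member stood at -0.41, complex II at -0.49 and complex V at -0.53, with 23 of 76 members at least 1.5-fold lower (10.1% of all genes) and 1 higher (5.49%); the cause there is the all-gene median of -0.17 that is then not removed. Without chromosomes 2, 6 and 19 the counts were 6 of 62 lower (4.57% of all genes) and 2 higher (7.06%), over fewer genes. The comparisons with neighbours and without overlapping genes were added after seeing the data. No paired analysis was possible because each leukaemia has 1 library. Other causes of these moves were not tested. Depth limits mainly the short and low genes such as Ndufc1.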
